A study of Mus musculus with 28 samples.

Results

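Pou4f3 is 1 of 3 transcription factors that were switched on, alone and together, in differentiating mouse embryonic stem cells, and the values here set induced cells that made Pou4f3 beside induced cells that did not. From the 28 RNA-seq libraries of the study the 14 libraries of Dox-treated cells were taken. Of these, 8 came from the 4 lines with a Pou4f3 transgene (iPou4f3, iG+P, iP+A and iGPA) and 6 from the 3 lines without one (iAtoh1, iGfi1 and iG+A). The difference was adjusted for the presence of Atoh1 and of Gfi1, and the line, not the library, was the unit of judgement.

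The study asked how Gfi1 and Pou4f3 change what Atoh1 does, since Atoh1 drives both neurons and hair cells (HCs). Every line was made from A2Lox embryonic stem cells, which take a single Dox-inducible cassette at 1 locus. iAtoh1 carried Atoh1 alone, iGfi1 carried Gfi1 alone, and iPou4f3 carried Pou4f3 alone. iG+A joined Gfi1 with Atoh1, iG+P joined Gfi1 with Pou4f3, iP+A joined Pou4f3 with Atoh1, and iGPA held all 3. The factors of a cassette were joined by 2A peptides and followed by an mVenus reporter, with FLAG tags on Atoh1 and Myc tags on Pou4f3. Embryoid bodies (EBs) received 2 µg/ml doxycycline (Dox) at day 4, and at day 6, after 48 h, mVenus+ cells were sorted. All 14 libraries compared here came from sorted cells, whereas the 14 untreated libraries came from whole unsorted EBs. The 2 libraries of a line are biological replicates. No line with mVenus but without a factor was among the samples, so the lines without Pou4f3 are not empty: each carried Atoh1, Gfi1 or both.

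Pou4f3 is a POU homeodomain transcription factor of inner ear HCs and of some sensory neurons. In HCs it acts after Atoh1, opens sites in closed chromatin and is needed for survival of the cells. Its relatives Pou4f1 and Pou4f2 serve similar roles in somatosensory neurons and retinal ganglion cells, so genes of both sensory systems were followed.

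The deposited table gives log2(normalized count + 1) for each gene and library, where 1 library size factor had been divided out. Values below are normalized counts unless a log2 scale is named. Of 19421 genes, 16541 had at least 10 normalized counts in at least 2 of the 14 libraries and were tested. The libraries with Pou4f3 summed to 36.8 to 39.2 M normalized counts and those without to 37.0 to 39.0 M, so depth was alike on the authors' scale. The steps between low values put the libraries at about 35.1 to 43.9 M and 30.3 to 42.1 M counted reads. In bulk RNA, a smaller share of cells with a transcript and less of it per cell cannot be told apart.

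The transgenes matched the labels. Pou4f3 (Entrez 18998) had 4694 to 19880 normalized counts, with a median of 12960, in the 8 libraries of lines that carry it, and 27.7 to 101 with a median of 46.2 in the other 6. Its line means were 18740 in iG+P, 14080 in iGPA, 11870 in iP+A and 5037 in iPou4f3. iPou4f3 cells therefore held the least Pou4f3 RNA of the 4 lines. Atoh1 line means were 13850 to 20120 in the 4 lines with its cassette and 17.4 to 29.5 in the other 3. Gfi1 line means were 8792 to 11610 with its cassette and 70.9 to 110 without. The table does not separate transgene from endogenous transcripts.

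Over the 7 lines, 70 genes were higher with Pou4f3 at an adjusted p under 0.05 and a log2 fold change of at least 1.5, which is 0.423% of the genes tested. Pou4f3 itself was 1 of them, which leaves 69. No gene was lower past the same threshold in this limma fit of line means, although 646 genes (3.91%) were lower and 1146 (6.93%) higher at an unadjusted p under 0.05. The fit has 7 line means and 4 coefficients, hence 3 residual degrees of freedom. When the 14 libraries were fitted with the line as a random block, 254 genes were higher (1.54%) and 19 lower (0.115%), and the 254 held the 69. The count over lines was fragile: without 1 line it was 3 (iGfi1), 4 (iP+A), 5 (iAtoh1), 10 (iGPA), 14 (iG+P), 27 (iG+A) or 65 (iPou4f3). Pou4f3 itself did not pass without iGfi1, iP+A or iGPA (limma adjusted p = 0.094, 0.058 and 0.0831). Each of the 69 genes stayed above 0 in every one of these 7 fits. The same lines had chosen the genes, so a change of sign was unlikely from the start. Single genes differed in how often they passed: of 35 alternative fits Sncg passed in 35, Mapk8ip1 in 34, Adam11 in 33, Otof in 28 and Slc18a2 in 10.

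The 69 genes rose by a median of 3.18 on the log2 scale, from 1.52 for Slc18a2, the vesicular monoamine transporter, to 8.06 for Lrrn3, a leucine-rich repeat membrane protein of neurons. Their median level was 653 normalized counts over the lines with Pou4f3, 93.0 over the lines without and 69.9 over the untreated EBs. The lines form 3 pairs whose cassettes differ by Pou4f3, and the median differences over the 69 genes in these pairs were 3.27 (iG+P minus iGfi1), 3.28 (iP+A minus iAtoh1) and 3.03 (iGPA minus iG+A). In 68 of the 69 genes all 3 differences were at least 1, which held for 1.45% of all genes tested, and in 61 the line means did not overlap between groups, which held for 3.11%. Because the same lines chose the genes, these shares are a description. iGPA cells had the highest line mean for 33 of the 69 genes, iP+A for 18, iG+P for 15 and iPou4f3 for 3. The heat map of line means shows the step between the 3 left and the 4 right columns.

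**Figure D1:**
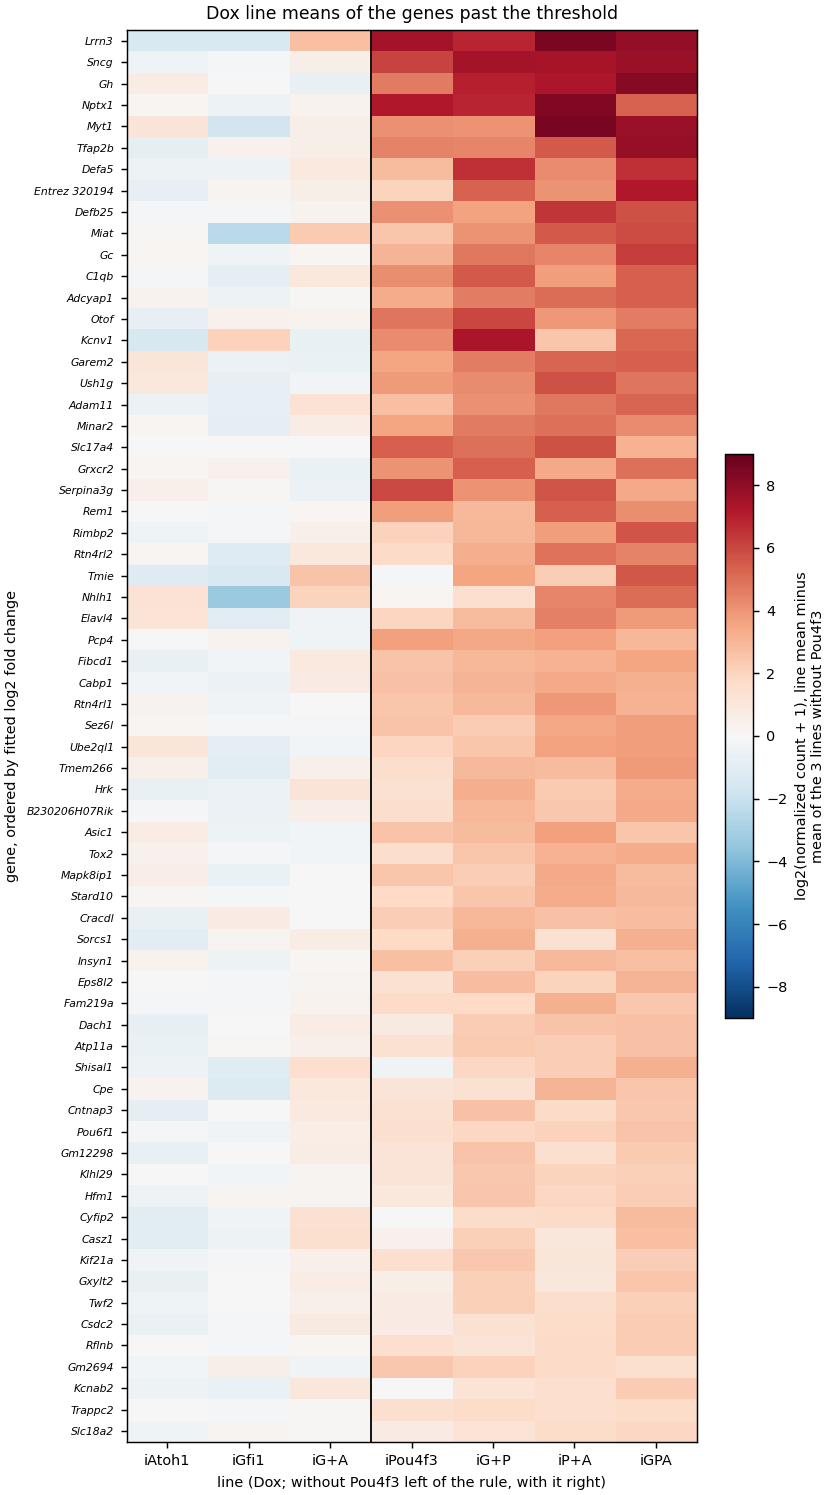
Heat map of 66 of the 69 genes past the threshold apart from Pou4f3 (rows, ordered by fitted log2 fold change) over the Dox line means of the 7 lines (columns); colour is log2(normalized count + 1) minus the mean of the 3 lines without Pou4f3. Lrrn3, Sncg and Gh head the rows, and iGPA holds the highest line mean for 33 of all 69 genes.

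The 10 largest rises that had the same direction in all 3 matched pairs were, in order, Lrrn3, Sncg, Gh, Nptx1, Myt1, Tfap2b, Defa5, the gene with Entrez number 320194, Defb25 and Miat. Sncg (Entrez 20618, chromosome 14, 35183460 to 35187975 on NCBIM37), gamma-synuclein of peripheral sensory neurons and retinal ganglion cells, had 2799 to 9112 normalized counts with Pou4f3 (median 7062) and 23.7 to 74.4 without (median 41.5). All 8 libraries with Pou4f3 stood above all 6 without it, and the untreated EBs had at most 41.8. The fitted log2 fold change was 7.47 (standard error 0.20, limma adjusted p = 0.00049), and Sncg was past the threshold in all 35 alternative fits.

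Lrrn3 (Entrez 16981, chromosome 12, 42178260 to 42212338) was listed at 0 in the untreated EBs and in the Dox libraries of iAtoh1 and iGfi1. It reached 2.13 and 90.3 normalized counts in the 2 iG+A libraries and 196 to 1003 in those with Pou4f3 (median 553). The log2 fold change was 8.06 (standard error 0.97, limma adjusted p = 0.0377). Only the iG+A libraries showed it without Pou4f3, and they differed from each other.

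Nptx1 (Entrez 18164, chromosome 11, 119400033 to 119409067) encodes a secreted pentraxin that gathers glutamate receptors at synapses. It had 501 to 5892 normalized counts with Pou4f3 (median 2164) and 9.67 to 28.1 without (median 12.5). The log2 fold change was 6.72 (standard error 0.59, limma adjusted p = 0.0183), and the groups did not overlap.

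Myt1 (Entrez 17932, chromosome 2, 181498037 to 181562502), a zinc finger factor that represses non-neuronal genes, had 194 to 5900 normalized counts with Pou4f3 (median 1538) and 2.46 to 45.4 without (median 16.8). Its line means were 232 in iPou4f3 and 218 in iG+P, against 4968 in iP+A and 2888 in iGPA, so the 2 lines that also carry Atoh1 stood highest. The log2 fold change was 6.63 (standard error 0.42, limma adjusted p = 0.0112).

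Miat (Entrez 330166, chromosome 5, 112642248 to 112657968), a long non-coding RNA of the nervous system, had 2105 to 24590 normalized counts with Pou4f3 (median 11840) and 66.7 to 2180 without (median 480). Here the groups overlapped, since iG+A cells averaged 1980 and iPou4f3 cells 2118. The log2 fold change was 5.19 (standard error 0.50, limma adjusted p = 0.0223).

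Tfap2b (Entrez 21419, chromosome 1, 19198995 to 19228815), the AP-2 factor of neural crest and placodal derivatives, had 53.5 to 1051 normalized counts with Pou4f3 (median 159) and 1.16 to 10.4 without (median 2.39). The log2 fold change was 6.05 (standard error 0.65, limma adjusted p = 0.0281). iGPA cells were highest, with a line mean of 991.

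**Figure D2:**
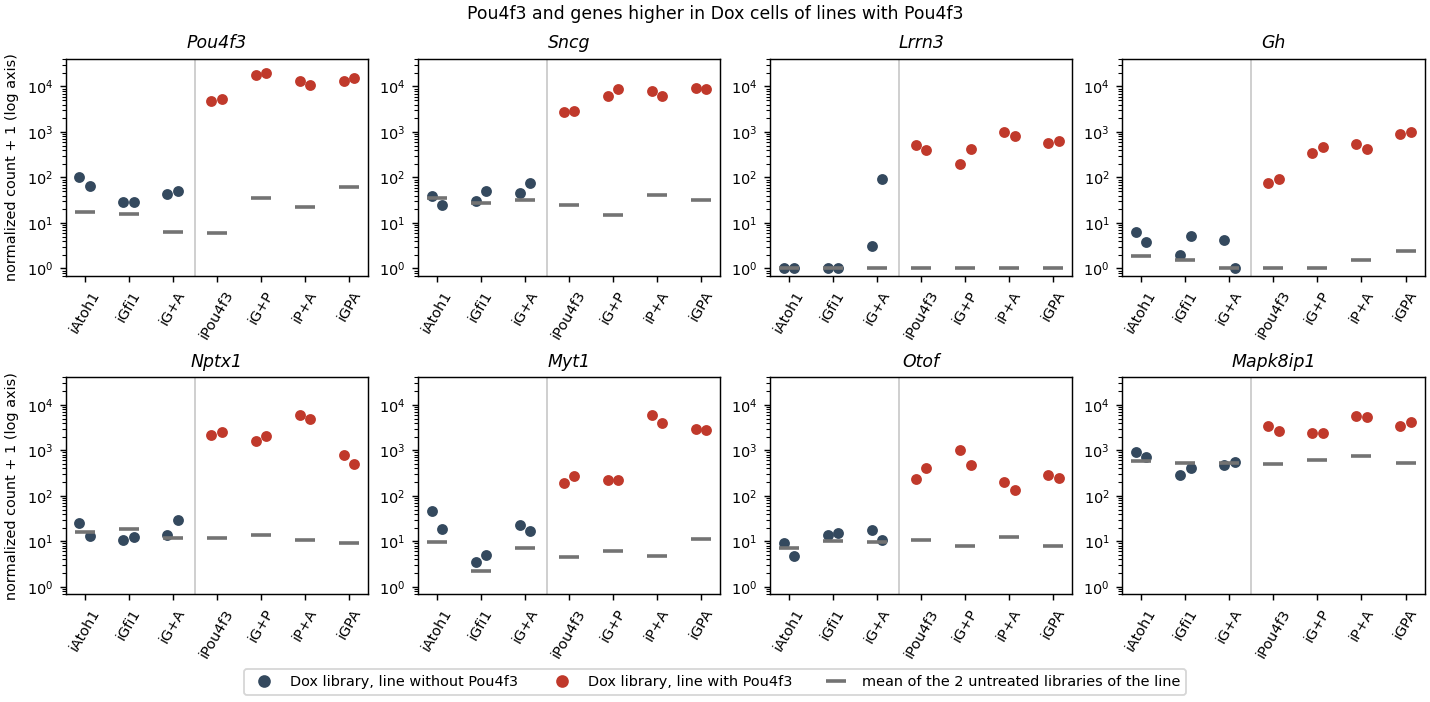
Normalized counts + 1 (log axis) of Pou4f3 and 7 genes in each Dox library, by line; points left of the grey rule are lines without Pou4f3, points right of it lines with it, and dashes are the mean of the 2 untreated libraries of the line. Sncg runs from 2799 to 9112 with Pou4f3 and from 23.7 to 74.4 without, and Lrrn3 appears without Pou4f3 only in iG+A.

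Not all of the largest rises belong to neurons or HCs. Gh (Entrez 14599, chromosome 11, 106161585 to 106163179), growth hormone of the anterior pituitary, had 74.1 to 1003 normalized counts with Pou4f3 (median 450) and 0 to 5.47 without (median 3.02). The log2 fold change was 7.15 (standard error 0.72, limma adjusted p = 0.0255). Pou1f1, the POU factor that drives Gh in the pituitary, had 7.07 to 17.4 normalized counts with Pou4f3 and 8.54 to 22.9 without, and Cga, the shared subunit of the pituitary glycoprotein hormones, had 3.93 to 40.4 and 13.4 to 87.2. Tshb, another pituitary hormone gene, was present in both groups, at 6.87 to 132 and 1.22 to 110.5 (log2 fold change -0.06, limma adjusted p = 0.99). Pou1f1, Cga and Tshb did not pass the threshold in either direction.

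Defa5 (Entrez 13239), an alpha-defensin of the gut, had 8.78 to 145 normalized counts with Pou4f3 and 0 to 5.31 without, and Defb25 (Entrez 654459), a beta-defensin, had 11 to 121 and 0 to 1.06. Fitted folds of such genes depend on the added count of 1: with 0.5 in its place the log2 fold change was 6.51 for Defa5 and 6.12 for Defb25, and with 5 it was 3.66 and 3.17, where neither passed the threshold. Alpha-defensins are near-identical copies, so reads of Defa5 may have been divided among them. Its relative Defa20 had 6.31 to 429 normalized counts with Pou4f3 and 1.90 to 40.3 without, which did not pass the threshold (log2 fold change 2.72, limma adjusted p = 0.253). Defa24 went the other way, with 0 to 7.13 against 0 to 34.7 (log2 fold change -1.40, limma adjusted p = 0.591), and Defa17 had 0 to 1.02 against 0 to 23.2 and Defa3 0 to 2.03 against 0 to 9.11, both too low to be tested. The gene with Entrez number 320194, which the reference does not name, had 29.6 to 1476 normalized counts with Pou4f3 against 2.87 to 16.1 without (log2 fold change 5.34, standard error 0.50, limma adjusted p = 0.0206).

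C1qb, a chain of the complement protein C1q that macrophages make, was also past the threshold, with 32.6 to 199 normalized counts against 0.946 to 8.51. Its partner chains C1qa and C1qc stayed at or under 8.18 and 5.34, and Csf1r, a macrophage receptor, was at 9.73 to 29.1 with Pou4f3 and 14.8 to 46.0 without. Gc, the vitamin D binding protein of liver, had 48.0 to 503 against 3.09 to 7.32. Slc17a4, a transporter of the intestine, had 5.12 to 51.9 and was listed at 0 in all 6 libraries without Pou4f3.

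Some of the most even rises were of modest size. Mapk8ip1 (Entrez 19099, chromosome 2, 92223833 to 92241420), a scaffold of JNK signalling in neurons, had 2401 to 5670 normalized counts with Pou4f3 (median 3445) and 286 to 916 without (median 517). Its 3 matched differences were 2.82, 2.80 and 2.88, and the fitted one was 2.80 (standard error 0.10, limma adjusted p = 0.00141). Trappc2, a subunit of a vesicle tethering complex, had 838 to 1040 against 271 to 383, or 1.63 on the log2 scale (standard error 0.12, limma adjusted p = 0.014). Adam11, a neuronal member of the ADAM family, had 3337 to 23200 against 322 to 1381, or 4.67 on the log2 scale (standard error 0.22, limma adjusted p = 0.00448). Trappc2 was about even over the lines, whereas Adam11 was higher where more factors were joined, with line means of 21180 in iGPA, 14630 in iP+A, 9357 in iG+P and 3623 in iPou4f3. Mapk8ip1 and Trappc2 share exon positions with other genes, as do 12 of the 67 genes past the threshold that have coordinates, and the counting is not stated to use strand.

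Other genes past the threshold had varied roles. Pcp4, a calmodulin binding peptide, had 246 to 445 normalized counts with Pou4f3 against 10.6 to 50.02, and Fibcd1, a membrane lectin, 134 to 360 against 10.4 to 57.4. Rtn4rl1 and Rtn4rl2, relatives of the Nogo receptor, had 1376 to 3938 against 188 to 352 and 400.4 to 4171 against 51.2 to 444. Kcnv1, a modifier subunit of potassium channels, had 13.7 to 632 against 0 to 14. The libraries of Rtn4rl2 and Kcnv1 overlapped between groups, and those of Pcp4, Fibcd1 and Rtn4rl1 did not. Cpe, the carboxypeptidase of prohormone processing, had 1251 to 5227 against 227 to 1330. Serpina3g, a serpin with close copies in the genome, had 78.0 to 620.1 against 3.57 to 15.3.

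Among regulators and cytoskeletal genes, Dach1 had 846 to 3734 normalized counts against 283 to 973 and Casz1, a zinc finger factor, 788 to 4705 against 297 to 1908, both with overlap. Twf2, a twinfilin that binds actin, had 1738 to 4876 against 802 to 1528, and Kif21a, a kinesin, 1529 to 4006 against 437 to 1192, neither with overlap. Of all 69 genes, 52 showed no overlap between libraries, as did 1.11% of all genes tested, and these libraries chose the 69. Further genes past the threshold were Atp11a, B230206H07Rik, Cntnap3, Cracdl, Csdc2, Cyfip2, Fam219a, Garem2, Gm12298, Gm2694, Gxylt2, Hfm1, Insyn1, Kcnab2, Klhl29, Minar2, Rem1, Rflnb, Sez6l, Shisal1, Sorcs1, Stard10, Tmem266 and Ube2ql1, with log2 fold changes of 1.68 (Kcnab2) to 4.83 (Garem2).

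Among HC genes the hair bundle list, which holds the proteins of stereocilia, their links and the mechanotransduction channel, had 4 of 36 tested members past the threshold and none lower, with a median log2 fold change of 0.50 beside -0.01 over all genes. With the line as a random block 11 of the 36 were higher. Over all genes tested these shares were 0.423% and 1.54%. Ush1g, the scaffold below the tip link, had 55.2 to 223 normalized counts with Pou4f3 (median 103) and 0 to 7.31 without (median 4.54), or 4.75 on the log2 scale (standard error 0.43, limma adjusted p = 0.0183). Grxcr2, a protein of the stereocilia base, had 13.5 to 75.9 against 0 to 1.89, or 4.46 on the log2 scale (standard error 0.55, limma adjusted p = 0.0384). Neither gene overlapped between groups.

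Tmie, a subunit of the mechanotransduction channel complex, did overlap. It had 11.6 to 1086 normalized counts with Pou4f3 (median 170) and 4.83 to 154 without (median 9.73), since iG+A cells averaged 130 and iPou4f3 cells 19.5. Its log2 fold change was 3.85 (standard error 0.43, limma adjusted p = 0.0306). Tmie shares exon positions with Als2cl. Eps8l2, an actin regulator at stereocilia tips, had 336 to 1302 against 115 to 212, or 2.54 on the log2 scale (standard error 0.23, limma adjusted p = 0.0187), and shares exon positions with B230206H07Rik, which was also past the threshold. Those that passed only with the line as a random block included Myo3b, Ush1c, Tmc2, Loxhd1, Ptprq and Atp2b2, with fitted log2 fold changes of 1.54 (Tmc2) to 2.98 (Ptprq).

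Otof, the calcium sensor of vesicle release at the HC ribbon synapse, was the 1 member of 17 past the threshold in the list of HC synapse, channel and calcium buffer genes (median log2 fold change 0.48), and 4 of the 17 passed with the line as a random block. Otof (Entrez 83762, chromosome 5, 30669351 to 30764305) had 136 to 997 normalized counts with Pou4f3 (median 267) and 3.78 to 17.0 without (median 11.2). Its line means were 741 in iG+P, 323 in iPou4f3, 267 in iGPA and 170 in iP+A. The log2 fold change was 4.84 (standard error 0.33, limma adjusted p = 0.013). Thus Otof was higher in every line with Pou4f3, also in the 2 that lack Atoh1. Cabp2, a calcium binding protein of the same synapse, had 9.99 to 334 against 0 to 8.11 and fell just short (log2 fold change 4.67, limma adjusted p = 0.0503).

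From the list of HC transcription and RNA regulators 1 of 21 members was past the threshold, Nhlh1, a bHLH factor of young neurons and HCs (median of the list 0.38; 3 with the line as a random block). Nhlh1 had 104 to 3430 normalized counts with Pou4f3 (median 1068) and 4.83 to 415 without (median 257). The groups overlapped, because iAtoh1 (257) and iG+A (406) stood above iPou4f3 (115), while iGfi1 had 11.2. Lhx3, the LIM factor of HCs, was 38.3 in iP+A and 417 in iGPA, against 0.699 in iPou4f3 and 5.14 in iG+P. Without Pou4f3 it was 110 in iG+A, 5.25 in iAtoh1 and 1.87 in iGfi1, and it did not pass (log2 fold change 2.2, limma adjusted p = 0.206).

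Other HC genes that the study follows did not pass. Myo6 had line means of 3174 to 9529 with Pou4f3 and 2141 to 4867 without, Espn 252 to 1992 and 499 to 1941, Myo7a 1836 to 3298 and 1935 to 5481, and Cdh23 24660 to 62260 and 26550 to 33800. Outside the lists, Rimbp2, a protein of the presynaptic active zone, was past the threshold, with 476 to 6191 against 76.8 to 200, and so was Cabp1, a calcium binding protein of synapses, with 1930 to 3567 against 185 to 599.

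The general neuronal list had 3 of 30 members past the threshold, Myt1, Nhlh1 and Elavl4, with a median of 0.87, and 7 with the line as a random block. Over all genes tested these shares were 0.423% and 1.54%. Elavl4, a neuronal RNA binding protein, had 488 to 4010 normalized counts with Pou4f3 (median 1534) and 66.7 to 418 without (median 114), or 3.47 on the log2 scale (standard error 0.43, limma adjusted p = 0.0422). Dcx, a microtubule protein of migrating neurons, had 33.8 to 458 against 19.3 to 86.9 (log2 fold change 2.49, limma adjusted p = 0.246). Tubb3, the neuronal tubulin, had 132 to 9649 against 37.2 to 1142 (log2 fold change 0.87, limma adjusted p = 0.839). In 26 of the 30 the fitted value was above 0, as it was in 7774 of all 16541 genes.

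The 4 lists of sensory neuron genes had 0 or 1 call each over lines, beside 0.423% of all genes, and 1.54% with the line as a random block. The cytoskeleton list had 1 of 15 past the threshold (Sncg; median 0.88; 5 with the line as a random block), the channel and receptor list 1 of 19 (Asic1; median -0.01; 2 with the random block), the neuropeptide list 1 of 17 (Adcyap1; median 0.19; 1 with the random block), and the transcription factor list 0 of 21 (median 0.44; 3 with the random block). Asic1, a proton-gated channel, had 1268 to 3187 normalized counts with Pou4f3 against 165 to 400, or 2.86 on the log2 scale (standard error 0.27, limma adjusted p = 0.0223). Adcyap1, which encodes the peptide PACAP, had 12.5 to 76.8 against 0 to 1.89.

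Pou4f1 had line means of 142 in iPou4f3, 401 in iG+P, 498 in iGPA and 2049 in iP+A, against 51.3, 58.1 and 272 in iAtoh1, iGfi1 and iG+A, and did not pass (log2 fold change 2.80, standard error 0.81, limma adjusted p = 0.284). Prrxl1, a homeodomain factor of pain-sensing neurons, was 30.0 and 31.9 in iPou4f3 and iG+P and 589 and 2575 in iP+A and iGPA, and also did not pass (log2 fold change 3.12, limma adjusted p = 0.105). The POU family had 1 of 13 past the threshold, Pou6f1, with 860 to 2074 normalized counts against 245 to 571 (log2 fold change 2.21, standard error 0.12, limma adjusted p = 0.00783), and 2 with the random block, Pou6f1 and Pou4f1.

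The list of genes tied to Pou4f3 in earlier work holds 6, of which Gfi1 was set by the cassettes, and 0 of the other 5 passed in either direction. Bdnf, a neurotrophin of sensory epithelia, had 34.7 to 154 normalized counts with Pou4f3 and 24.7 to 73.8 without (log2 fold change 0.98, limma adjusted p = 0.592). The neurotrophin list had 0 of 17 (median 0.05; 1 with the random block, Ntrk3 at 1.98), the proneural list 0 of 10 (median 0.70), the Notch list 0 of 27 (median -0.21; 1 with the random block, Dlk2 at 2.21), the axon guidance list 0 of 45 (median 0.15; 3 with the random block), the Id and BMP list 0 of 18 (median -0.11) and the cell cycle list 0 of 24 (median -0.08). Efna3, an ephrin, was the closest of these to the threshold, with 1028 to 2371 against 233 to 635 and no overlap (log2 fold change 2.03, limma adjusted p = 0.0589). Ccnd1, a cyclin of the G1 phase, had 726 to 1564 against 1090 to 2379 (log2 fold change -0.63, limma adjusted p = 0.105).

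**Figure D3:**
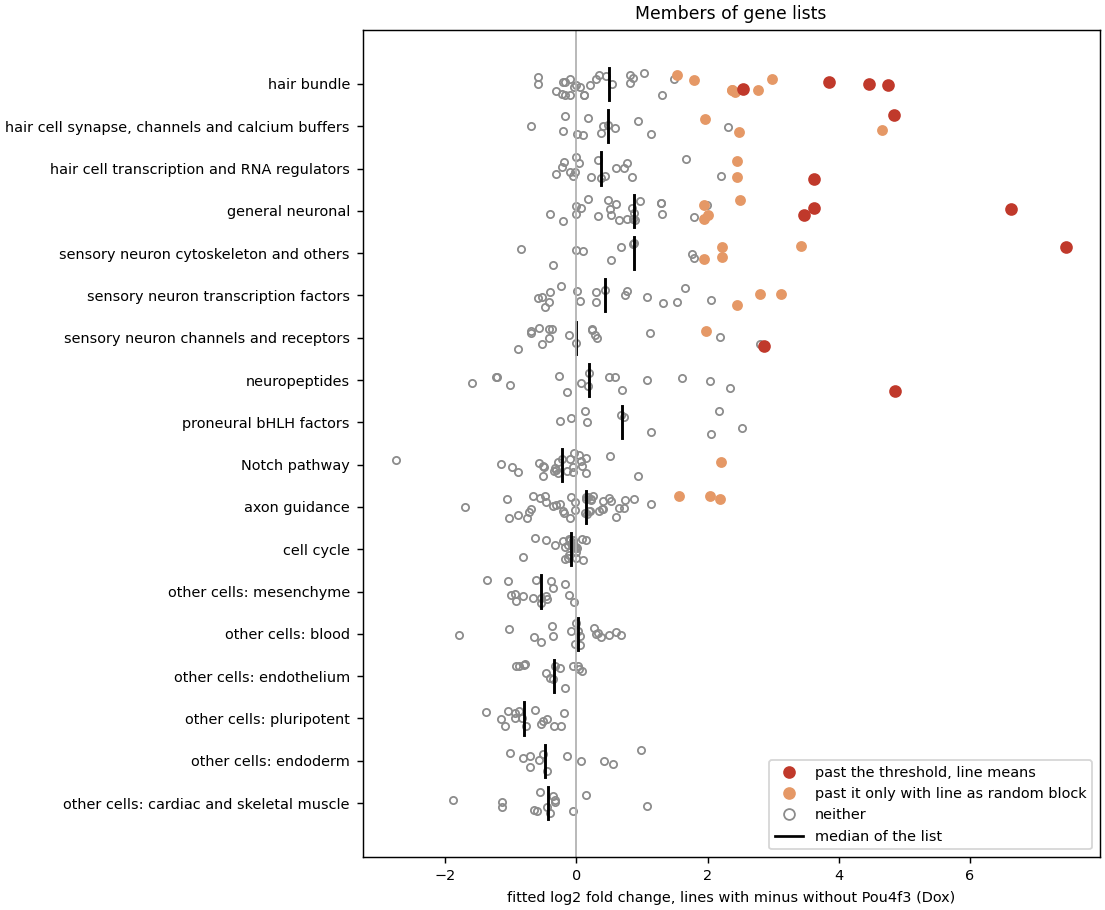
Fitted log2 fold change (lines with minus without Pou4f3, Dox) of each tested member of 18 gene lists; red points are past the threshold over line means, orange points only with the line as a random block, open points neither, and black bars are list medians. The red points lie among hair bundle, HC synapse, HC regulator, neuronal, sensory cytoskeleton, sensory channel and neuropeptide genes, and no member of the 6 lists of other cells is filled.

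Day 6 EBs hold other cells, and none of the 92 tested marker genes of 6 other cell types was past the threshold. All 17 mesenchyme markers had a fitted value below 0 (median -0.54), as did all 16 pluripotency markers (median -0.80), 12 of 14 muscle markers (median -0.43), 11 of 14 endothelial markers (median -0.34), 8 of 12 endoderm markers (median -0.48) and 9 of 19 blood markers (median 0.02). In the pair iP+A minus iAtoh1, however, the mesenchyme median was 0.14. The named pluripotency markers Utf1 and Esrrb were at -1.38 and -1.09 with Dox. Between untreated lines with and without the Pou4f3 cassette they already differed by -0.83 and -0.72, without passing the threshold. Summed mesenchyme markers had 66660 to 331900 normalized counts in libraries with Pou4f3 and 123800 to 177300 without, so the groups overlapped. Summed pluripotency markers had 11550 to 17830 and 12200 to 29490, and blood markers 16820 to 287300 and 20780 to 403700. No marker of the 6 lists was at 0 in every Dox library. Of 16 genes that dissociation can induce, 0 passed and 14 were below 0 (median -0.17). The part of the other cells in the differences above was not tested.

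The same comparison was made in untreated EBs, where the factors were low but not in all cases absent: Atoh1 line means there were 38.2 to 102 with its cassette and 3.56 to 10.1 without, while those of Pou4f3 were 5.07 to 60.8 with its cassette and 5.19 to 16.8 without. There 0 of 16299 genes passed the threshold in either direction in the limma fit over lines, with 38 higher (0.233%) and 154 lower (0.945%) at an unadjusted p under 0.05, and 0 past it under every alternative that was run. Of the 69 genes, 57 were tested in untreated EBs. Their log2 difference between lines with and without the Pou4f3 cassette had a median of -0.03 and ran from -0.68 (Rimbp2) to 0.44.

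iPou4f3 has no partner line, because no line lacks all 3 factors, which leaves it as a line in which genes chosen elsewhere can be looked up. This look-up was chosen after the data had been examined. A fit of the 6 lines of the 3 matched pairs gave 64 genes higher with Pou4f3 apart from Pou4f3 itself and 3 lower. In iPou4f3 cells all 64 were above their untreated EBs, as were 49.5% of all genes tested, with a median log2 difference of 2.26 beside 0.00 over all genes. Of the 64, 38 (59.4%) were higher past the threshold in iPou4f3 Dox against No Dox and 0 lower, where 1.51% of all genes were higher and 0.544% lower. Sorting differs between Dox and untreated samples, and its part was not tested. Of the 3 lower genes, Pcdhga7, Rbp3 and Speer8-ps1, 0 were lower past the threshold in iPou4f3.

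Over the untreated EBs of their own line, the 69 genes had a median log2 difference of 4.11 in iGPA, 3.34 in iP+A, 3.41 in iG+P and 2.48 in iPou4f3. In iAtoh1 and iGfi1 the median was 0 and in iG+A 0.61. By their Pou4f3 counts the same lines ran from iG+P over iGPA and iP+A to iPou4f3.

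No gene fell past the threshold over lines, but Hox genes, the homeodomain factors that set position along the body axis, lay low together. The family was chosen after its values had been seen, so its counts carry no test. Of 34 tested Hox genes, 33 had a fitted value below 0, where 8767 of 16541 genes did, and the median was -1.10. All tested mesenchyme and pluripotency markers were below 0 too (medians -0.54 and -0.80), and the part of such cells in the Hox values was not tested. With the line as a random block 7 were lower, Hoxa7, Hoxa9, Hoxa10, Hoxa11, Hoxc6, Hoxc8 and Hoxc9, and in the mean of the 3 matched pairs 12 were lower, beside 0.81% of all genes lower and 2.19% higher. The A and C clusters had medians of -1.84 and -1.75, the D cluster -1.09 and the B cluster -0.16. Paralog groups 5 to 11 had 20 of 20 below 0 and a median of -1.69, and paralog groups 1 to 4 had 10 of 11 below 0 and a median of -0.68.

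Hoxc8 came closest over lines. It had 8.07 to 299 normalized counts with Pou4f3 and 20.2 to 549 without, so that the groups overlapped, because iAtoh1 and iPou4f3 cells held far more Hoxc8 than cells with Gfi1. The line means were 453 in iAtoh1 and 113 in iP+A, 99.0 in iGfi1 and 18.8 in iG+P, and 32.7 in iG+A and 9.65 in iGPA. The 3 matched differences were -1.96, -2.37 and -1.57, and the fitted one -1.96 (standard error 0.28, limma adjusted p = 0.0589, and 0.0043 with the line as a random block). Hoxc6 was at -1.99 (limma adjusted p = 0.0656), Hoxc9 at -2.34 (limma adjusted p = 0.0674) and Hoxa7, which shares exon positions with an antisense gene, at -2.56 (limma adjusted p = 0.0972).

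**Figure D4:**
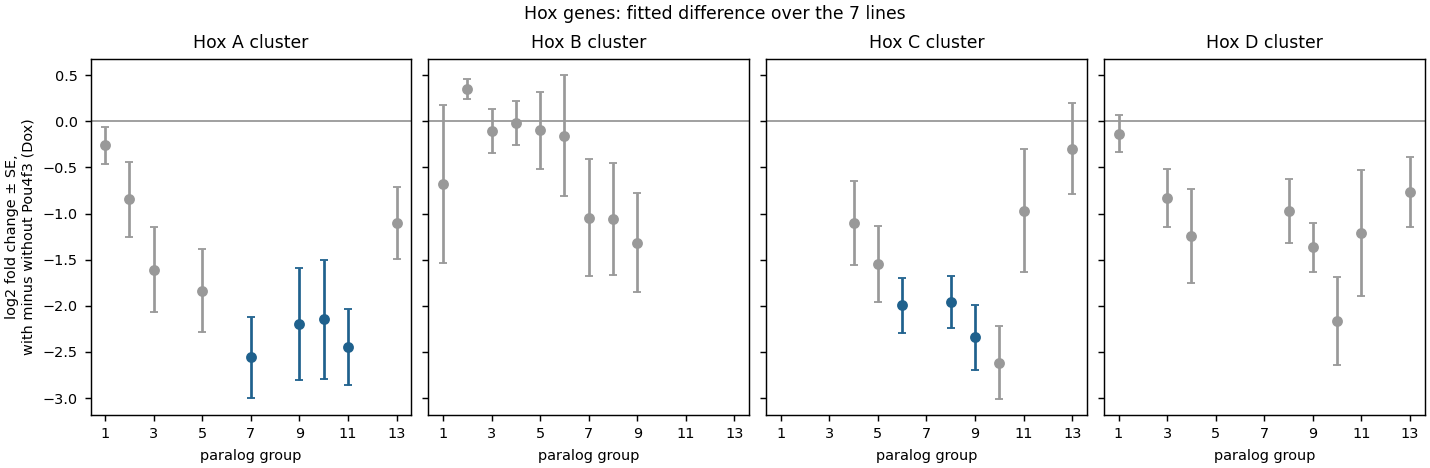
Fitted log2 fold change (lines with minus without Pou4f3, Dox; bars are the standard error) of 34 Hox genes by cluster and paralog group; blue points are lower past the threshold with the line as a random block, grey points are not, and none passes over line means. Values reach -2.56 at Hoxa7 and -2.61 at Hoxc10, while the B cluster has a median of -0.16.

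Whether the difference with Pou4f3 depends on the other factors can be asked where Atoh1 or Gfi1 is constant. The difference iGPA minus iG+A was set against iP+A minus iAtoh1 (dependence on Gfi1) and against iG+P minus iGfi1 (dependence on Atoh1), with an error from the 2 libraries of each line. Each term of these contrasts is 1 line, so a difference between lines that the cassette did not make is not in the error and cannot be told apart from a dependence. By Gfi1, 155 genes had a higher difference with Gfi1 (0.937%) and 372 a lower one (2.25%), and by Atoh1 336 were higher (2.03%) and 192 lower (1.16%). Both contrasts share iGPA and iG+A, and each rests on 4 lines. Among the 69 genes, 1 was higher and 2 lower by Gfi1, and 1 higher and 3 lower by Atoh1. Leaving out 1 library moved the counts by Gfi1 to 68 to 211 higher and 157 to 441 lower, and those by Atoh1 to 126 to 340 higher and 69 to 200 lower. By Gfi1 the higher count moved by over 1.5 times without iP+A replicate 1 (68) or 2 (75), iGPA replicate 1 (77) or 2 (93) or iAtoh1 replicate 1 (88), and the lower count without iP+A replicate 1 (157) or 2 (236) or iGPA replicate 1 (208). By Atoh1 the higher count did so without iGPA replicate 1 (168) or 2 (126), iG+P replicate 1 (162) or iGfi1 replicate 2 (178), and the lower count without iG+P replicate 1 (69) or iGPA replicate 1 (119) or 2 (92).

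Nptx1 passed in both contrasts. It was lower in iGPA (642) than in iP+A (5336), iPou4f3 (2350) and iG+P (1856), a difference by Gfi1 of -3.22 on the log2 scale (limma adjusted p = 0.0071) and by Atoh1 of -2.35 (limma adjusted p = 0.0261). Rimbp2 had its highest line mean in iGPA (5679), and its difference was higher with Atoh1 by 2.09 (limma adjusted p = 0.016). Miat had a smaller difference with Atoh1 (-2.97, limma adjusted p = 0.0143), as did Hrk, a cell death activator (-1.64, limma adjusted p = 0.0424).

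Genes of neurons differed between the pairs. The median difference over the 30 general neuronal genes was 0.50 in iG+P minus iGfi1, 2.52 in iP+A minus iAtoh1 and 0.86 in iGPA minus iG+A, and over the 15 sensory cytoskeleton genes it was -0.17, 2.47 and 1.81, while over all genes each pair's median was within 0.013 of 0. The 16 dissociation stress genes spread over the pairs as well, with medians of -1.37, 0.44 and 0.83 in the same order, and 2 of them had a higher difference with Atoh1. Mesenchyme markers had medians of -1.1, 0.14 and -0.87, and 3 of the 17 had a lower difference with Gfi1 and 0 a higher one. Medians of muscle (-1.13), endothelial (-1.09), blood (-0.558) and endoderm markers (-0.366) were also lowest in iG+P minus iGfi1. That of pluripotency markers was lowest in iP+A minus iAtoh1 (-0.783). The part of stress genes and of other cells in the values of neuronal genes was not tested. By Gfi1, 6 of the 30 neuronal genes had a lower difference and 0 a higher one, beside 2.25% and 0.937% of all genes. By Atoh1, 5 were higher and 0 lower, beside 2.03% and 1.16%. Among the 6 were Scrt1, Scrt2, Celf3, Gap43 and Scg3, and the 5 were Tubb3, Elavl3, Gap43, Scg3 and Map2, all named after their values had been seen.

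Tubb3 passed by Atoh1 but not by Gfi1 (difference by Gfi1 -1.04, limma adjusted p = 0.211). Its line means were 1006 in iAtoh1 and 8692 in iP+A, 64.4 in iG+A and 250 in iGPA, and 229 in iGfi1 and 148 in iG+P. The difference with Pou4f3 was higher with Atoh1 by 2.70 (limma adjusted p = 0.0122). Pou4f1 had a lower difference with Gfi1, by -4.47 (limma adjusted p = 0.00355): it was 2049 in iP+A against 51.3 in iAtoh1, but 498 in iGPA against 272 in iG+A. Bdnf followed, at 151 against 27.5 and at 44.1 against 63.4 (difference by Gfi1 -2.95, limma adjusted p = 0.00353). Hair bundle genes did not follow that order, with median differences of 0.96, 0.32 and 0.23 in iG+P minus iGfi1, iP+A minus iAtoh1 and iGPA minus iG+A.

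**Figure D5:**
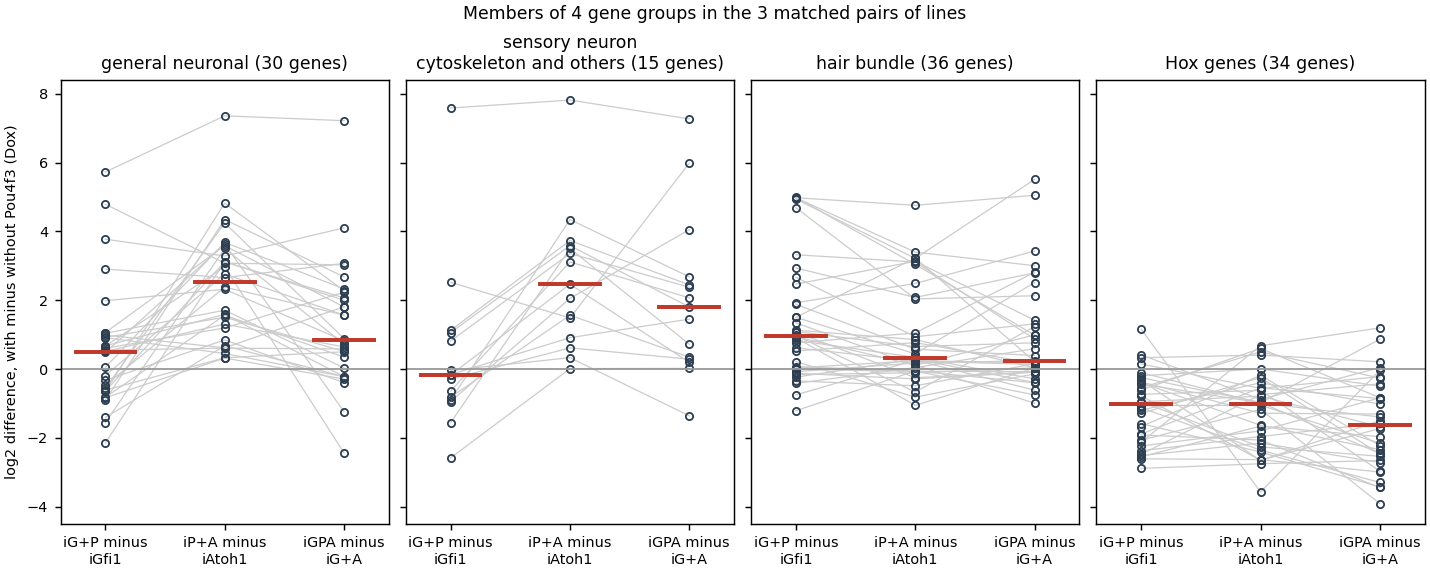
Log2 difference with minus without Pou4f3 in the 3 matched pairs of lines for each tested member of 4 gene groups; each point is 1 gene, grey lines join a gene over the pairs and red bars are medians. The general neuronal medians are 0.50, 2.52 and 0.86, and the Hox medians are -1.0, -1.02 and -1.62.

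The largest differences by Gfi1 or Atoh1 include genes in which 1 line stood apart. B3glct, a glycosyltransferase gene, had a line mean of 17.0 in iG+A and 756 to 2094 in the other 6 lines, which gives differences of 5.02 by Gfi1 and 6.68 by Atoh1. It was as low in untreated iG+A EBs (25.2, against 780 to 2040 in the other untreated lines), so iG+A stood apart before induction too. Rprl1, a non-coding RNA gene, was listed at 0 in all Dox lines but iGPA, where it averaged 1162. Cd3d, a T cell gene, was at 124 in iAtoh1, 16.4 in iGfi1 and listed at 0 in iG+A, and it was at most 4.09 in any library with Pou4f3 (difference by Gfi1 8.85, limma adjusted p = 0.0125).

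Lrrtm4 was at 833 in iG+A, 1650 in iPou4f3 and 23.9 to 219 in the other 5 lines (difference by Gfi1 -8.63, limma adjusted p = 0.00929). Tmem132e was at 1292 in iG+A and 3123 in iP+A, and its difference was lower both by Gfi1 (-7.34, limma adjusted p = 1.19e-06) and by Atoh1 (-3.68, limma adjusted p = 0.000704). Lrrc4, a leucine-rich repeat synaptic protein, was listed at 0 in iAtoh1, iGfi1, iPou4f3 and iP+A and had 101 in iG+A, 411 in iG+P and 464 in iGPA. It thus appeared where Gfi1 was joined to another factor.

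Promoters of the 69 genes were read to see whether they carry the letters of a POU4 site near the start. RefSeq promoters (GRCm38.p6, 250 bases before to 50 after the gene's start) matched 46 of the 69. The palindrome ATTAAT was in the promoter of 3 of the 46 (6.52%), and in 387 of the 12894 tested genes with a promoter in the table (3.0%). The longer ATAATTAAT or its reverse complement, which holds ATTAAT, was in 0 of the 46 and in 22 of the 12894 (0.171%). The 3 genes were Tfap2b, Hrk and Tox2, an HMG box factor gene. Hrk had 162 to 839 normalized counts with Pou4f3 against 40.2 to 210, and Tox2 137 to 508 against 31.9 to 74.1. Their promoters are given 5′ to 3′ on the gene's strand (plus in each case) with ATTAAT in capitals, for Tfap2b at chr1:19211804-19212103, for Hrk at chr5:118169514-118169813 and for Tox2 at chr2:163203936-163204235, since these are the rises whose promoter holds the site.
Tfap2b: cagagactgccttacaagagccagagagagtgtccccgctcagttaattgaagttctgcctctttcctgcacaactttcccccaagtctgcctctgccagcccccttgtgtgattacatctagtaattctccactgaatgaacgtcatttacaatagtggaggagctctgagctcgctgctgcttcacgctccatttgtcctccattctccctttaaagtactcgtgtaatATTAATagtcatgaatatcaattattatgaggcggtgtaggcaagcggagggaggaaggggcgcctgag
Hrk: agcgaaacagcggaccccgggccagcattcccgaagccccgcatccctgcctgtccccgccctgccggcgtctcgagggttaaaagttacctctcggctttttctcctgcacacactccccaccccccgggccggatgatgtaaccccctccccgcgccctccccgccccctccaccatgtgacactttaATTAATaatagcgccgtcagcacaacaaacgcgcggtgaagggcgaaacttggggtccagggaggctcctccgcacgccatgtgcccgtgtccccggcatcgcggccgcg
Tox2: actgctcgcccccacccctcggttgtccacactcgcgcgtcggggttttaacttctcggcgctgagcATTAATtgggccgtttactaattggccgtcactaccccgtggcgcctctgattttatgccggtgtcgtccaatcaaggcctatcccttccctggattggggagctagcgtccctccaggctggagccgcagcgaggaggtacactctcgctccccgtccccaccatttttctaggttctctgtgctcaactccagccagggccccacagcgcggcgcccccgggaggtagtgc
The match begins at position -19 relative to the start in Tfap2b, -60 in Hrk and -183 in Tox2. A match describes the letters in this window only, and binding was not measured in these libraries.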

How the data were processed

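The 28 libraries, 14 Dox and 14 untreated, had been made from total RNA with an mRNA library kit and sequenced by the authors. Reads had been trimmed by the authors with cutadapt, counted with kallisto against UCSC mm9 transcripts, summed per gene with tximport and normalized with DESeq2. Their versions are not given in the sources used here. The authors deposited log2(normalized count + 1) per gene and library, and the values were taken as deposited. Counts as such were not used: only 72% to 79% of values came out as whole reads within 0.05, so no count test was run.

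A gene entered a fit if 2 or more of its libraries reached 10 normalized counts. The 2 libraries of a line were averaged on the log2 scale, and the 7 line means were fitted with terms for Pou4f3, Atoh1 and Gfi1 in limma 3.58.1 (R 4.3.3) with trend, with Benjamini-Hochberg adjustment over all genes tested. Differences within matched pairs and by Gfi1 or Atoh1 came from a limma fit with 1 mean per line (14 libraries, 7 residual degrees of freedom). Threshold: adjusted p under 0.05 and log2 fold change of at least 1.5. A fold change on the log2(count + 1) scale understates the change of low genes. The 2 libraries of a line are biological replicates of it, and p-values over lines measure the spread between lines after the additive fit. Scripts were tested on simulated data. Alternatives were another pseudocount, filter, scaling, variance model and unit, and leaving out each library or line.

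Named genes were the 3 factors, the 10 largest rises and falls with the same sign in all 3 matched pairs, up to 4 members of each list past the threshold or else the 2 of largest change, the 5 largest differences by Gfi1 and by Atoh1, and genes the study names. Other names were chosen after their values were seen. The comparison, gene lists and tests were chosen with earlier results of these data known. Symbols came from RefSeq (GRCm38.p6), which named 19314 of 19421 genes, and coordinates from NCBIM37 annotation by symbol. A few genes are counted in the totals but not reported here by name.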

Additional observations from a re-analysis of the deposited data

Results flagged for a closer look

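In 6 groups of libraries 1 value stood far from the others, by the ratio of its gap to the group's range, out of 244 groups tested. Chance alone gives such a value in about 5% of groups. Among libraries with Pou4f3, Hspa1b, a heat shock gene, had 997 normalized counts in iGPA replicate 1 (next 322) and Gm5797 21.4 in iPou4f3 replicate 1 (all others 0). Among those without, iG+A replicate 1 alone had Defa5 (5.31) and Defb25 (1.06), iG+A replicate 2 had 90.3 of Lrrn3 (next 2.13), and iAtoh1 replicate 2 had the least Hfm1, a meiotic helicase (77.8, next 175).

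The difference with Pou4f3 differed by Gfi1 past the threshold in the limma test of the difference itself for 155 genes higher (0.937%) and 372 lower (2.25%), and 17 of these were named. The naming rule takes the 5 largest such differences, so 17 is no independent count. On the log2 scale it was higher with Gfi1 for Garem2 (1.80), Ntng2 (1.71), Lrrc4 (2.23), Ascl2 (4.60), B3glct (5.02), Helt (6.06), Rprl1 (8.77) and Cd3d (8.85). It was lower for Ccnd2 (-1.75), Slc17a4 (-2.59), Bdnf (-2.95), Nptx1 (-3.22), Col3a1 (-4.30), Pou4f1 (-4.47), Tmem132e (-7.34), Evi2b (-7.41) and Lrrtm4 (-8.63).

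By Atoh1 the test gave 336 higher (2.03%) and 192 lower (1.16%), of which 15 were named, the 5 largest again by rule. It was higher with Atoh1 for Rimbp2 (2.09), Prrxl1 (2.25), Dlk2 (2.51), Tubb3 (2.70), Ntrk2 (3.595), B3glct (6.68), Fam71a (7.33), Gm5797 (7.63) and Rprl1 (8.77), and lower for Hrk (-1.64), Ntng2 (-2.01), Nptx1 (-2.35), Miat (-2.97), Tmem132e (-3.68) and Lrrc4 (-6.45). Rprl1 had 84.4 and 2240 normalized counts in the 2 iGPA libraries and was listed at 0 in the other Dox libraries. B3glct was low in iG+A without Dox too (25.2 against 780 to 2040 in the other untreated lines), and Gm5797 averaged 224 in iGfi1 and 10.7 in iPou4f3 and was listed at 0 in the other Dox lines.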

How the results depend on the processing

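Over lines, 70 genes were higher and 0 lower. The count of higher genes was 4 with no filter on low values, 19 in limma without trend and 6 without adjustment for Atoh1 and Gfi1, and the count of lower genes was 1 with quantile normalization or at a log2 fold change of at least 1. The 6 lines of the matched pairs gave 3 lower. The line as a random block gave 254 higher and 19 lower, and 247 and 14 with a replicate block too. Leaving out 1 library or line gave 3 to 83 higher and 0 to 3 lower. Few residual degrees of freedom are left when a line is out, whichever line it is. The cause of these changes was not tested. The 69 genes were above 0 in all alternatives in which they were tested, which is a description, since the same libraries chose them.

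The mean of the 3 matched pairs gave 363 higher and 134 lower, with 611 and 458 at a log2 fold change of at least 1, 68 lower with a pseudocount of 5, and 340 to 387 higher and 119 to 158 lower without 1 library. By Gfi1, 155 higher became 249 at a log2 fold change of at least 1. Without 1 library they became 68 to 211, and the 372 lower became 157 to 441, with the lowest counts without iP+A replicate 1. By Atoh1, 192 lower became 299 at a log2 fold change of at least 1. Without 1 library they became 69 to 200, lowest without iG+P replicate 1, and the 336 higher became 126 to 340, lowest without iGPA replicate 2. In untreated lines the count was 0 throughout.

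The deviations of same-numbered libraries correlated at -0.20 to 0.12 over 21 pairs of lines. The paper labels its replicates Exp1 and Exp2. A low correlation over all genes cannot exclude a shared experiment that touched few genes, so pairing remains undecided. The replicate block gave 363 higher and 133 lower for the matched pairs, 140 and 347 by Gfi1 and 299 and 172 by Atoh1.

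Genes near 10 counts, such as Adcyap1 or Grxcr2, have log2 values that depend on the pseudocount of 1. The median log2 fold change over all genes was -0.01 and was -0.04 under both other scalings.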

Other observations

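Apart from Hox genes, 10 genes and 2 antisense transcripts of the HoxA cluster (Hoxa11os and Hoxaas3) were lower with Pou4f3 when the line was a random block, and none of them passed over lines. Cdhr1, a photoreceptor cadherin, had 80.3 to 241 normalized counts with Pou4f3 and 334 to 1449 without, with no overlap (log2 fold change -1.71, adjusted p = 0.00744 by limma with the line as a random block, 0.0972 over lines). Cyp1b1, a cytochrome P450 of retinoid and steroid metabolism, had 4.34 to 14.3 against 15.5 to 159, also with no overlap (log2 fold change -2.12). Crabp1, a retinoic acid binding protein, had 33.3 to 440 against 165 to 1051 (log2 fold change -1.79), and Spp1, osteopontin, 39.5 to 163 against 134 to 611 (log2 fold change -1.97), both with overlap. Igfbp5, a binding protein of insulin-like growth factors, had 3133 to 17790 against 12730 to 30240 (log2 fold change -1.51). Others were Fndc1, Itga7, Col5a3 and Ppef2.

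Pcolce, which enhances procollagen processing, was the gene lower at a log2 fold change of at least 1 over lines, with -1.41 (standard error 0.12, limma adjusted p = 0.0159) and matched differences of -1.52, -1.30 and -1.48. Its change is smaller than the 1.5 used elsewhere.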
